A study of Drosophila melanogaster with 3 samples.

Results

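The Hox genes of *Drosophila melanogaster* were described by the regions recovered around them in a chromatin immunoprecipitation and sequencing (ChIP-seq) experiment on zf30C, a zinc finger protein. All 8 Hox genes were taken, of 13945 protein-coding genes in the annotation. They were labial (lab), proboscipedia (pb), Deformed (Dfd), Sex combs reduced (Scr) and Antennapedia (Antp) of the Antennapedia complex, and Ultrabithorax (Ubx), abdominal A (abd-A) and Abdominal B (Abd-B) of the bithorax complex. Each summit inside one of these genes or up to 10 kb outside it was given once to its nearest Hox gene. The rule found 284 of the 30000 summits of the authors' pooled list, and 25 of these were among the 3567 summits of the shorter IDR list. The irreproducible discovery rate (IDR) scores how steadily a region ranks from one replicate to the next, and the authors kept what met their limit. A summit of that shorter list is called a peak from here on. The pooled list was deposited as peaks and background put into the IDR step, and each replicate list also holds 30000 regions. Summits below the IDR list can therefore be background, and they are described here without being taken as bound sites.

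The embryos came from a transgenic line that stably expressed zf30C with GFP fused to its C-terminal end, and both sexes were pooled. They were collected 0 to 24 h after egg laying and used whole, so the chromatin mixed all cell types and all embryonic stages of that window. There was 1 group of 3 libraries, labelled as biological replicates, with no second genotype, stage or treatment to compare. The labels name zf30C as the antibody target and list a separate control experiment, while a free-text line calls the same libraries an input control; they were read here as immunoprecipitated samples because the notes with the lists pair each one with a control alignment. The lists give a signal value per summit and no reads, so the depth behind a summit is unknown. They hold no expression values, so the levels of the Hox genes in these embryos were not analysed here.

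Hox genes encode homeodomain transcription factors that give the segments along the body axis their identity. In the fly they lie in a pair of clusters on chromosome arm 3R, in the order of the body regions they specify. Their expression is set up by gap and pair-rule proteins in the early embryo and then kept on or off, segment by segment, by Trithorax and Polycomb group proteins, through enhancers and response elements spread over long introns and intergenic DNA.

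The strongest peak of each gene is shown by its dm6 plus-strand sequence from 50 bases before the summit to 50 bases after it, since these are the sites where the signal at the Hox genes was highest. Capitals mark copies, on either strand, of any of the 3 words of 6 bases within TACACTGA. These words were the ones most in excess at the summits of the 3530 peaks outside the complexes, and they were chosen after the data were seen. Such copies were found in 3 of the 8 windows, those of Dfd, Antp and Ubx.
lab (chr3R:6663064-6663164): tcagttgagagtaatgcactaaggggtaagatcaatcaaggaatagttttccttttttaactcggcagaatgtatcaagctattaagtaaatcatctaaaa
pb (chr3R:6723924-6724024): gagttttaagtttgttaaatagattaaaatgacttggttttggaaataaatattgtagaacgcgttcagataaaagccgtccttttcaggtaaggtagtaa
Dfd (chr3R:6806946-6807046): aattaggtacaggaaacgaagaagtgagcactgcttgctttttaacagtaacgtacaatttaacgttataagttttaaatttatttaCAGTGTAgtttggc
Scr (chr3R:6816575-6816675): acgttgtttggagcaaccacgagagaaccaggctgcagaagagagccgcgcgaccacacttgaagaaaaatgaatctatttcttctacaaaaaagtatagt
Antp (chr3R:6903495-6903595): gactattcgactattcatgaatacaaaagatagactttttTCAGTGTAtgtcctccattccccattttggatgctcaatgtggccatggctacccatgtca
Ubx (chr3R:16656336-16656436): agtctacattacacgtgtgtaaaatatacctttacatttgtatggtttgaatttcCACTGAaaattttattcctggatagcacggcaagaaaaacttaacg
abd-A (chr3R:16837896-16837996): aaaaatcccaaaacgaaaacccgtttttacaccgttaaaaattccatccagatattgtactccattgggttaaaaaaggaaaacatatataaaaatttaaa
Abd-B (chr3R:16958263-16958363): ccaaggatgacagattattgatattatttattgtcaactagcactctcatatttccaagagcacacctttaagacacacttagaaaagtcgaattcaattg

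Each of the 8 Hox genes had at least 2 peaks. The background was 44.2% of protein-coding genes with a peak in the gene or within 10 kb, and 61.2% among the 1865 genes as long as the shortest Hox gene (10.6 kb) or longer. At least 2 peaks were found at 21.1% of all protein-coding genes and at 38.2% of the long ones. The mean was 3.12 peaks per Hox gene, against 1.64 per long gene and 0.853 per protein-coding gene. These gene counts let neighbouring genes share a peak, whereas the Hox genes were each given their own.

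Most Hox summits were weak, as were most summits of the whole pooled list. Of the 284, 25 were peaks, a share of 8.80% (95% exact binomial interval 5.78 to 12.7), where the background was 11.9% over the whole pooled list and 12.0% of the 28259 summits in or near a protein-coding gene. The 12.0% lay inside that interval. The other 259 summits had signal values from 44.4 to 183 with a median of 63.6, and 155 of them (59.8%) ranked beyond 15000 in the pooled list. Over all 26433 summits below the IDR list the median was 66.0 and 56.7% ranked beyond 15000. The weakest Hox peak was at Scr, with a signal of 199 and rank 3434, and the strongest Hox summit below the IDR list was in Ubx, with a signal of 183 and rank 3895.

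Summits were dense around the Hox genes, both in the pooled list and among the peaks. The genes and their flanks covered 497.5 kb and held 57.1 pooled summits per 100 kb, against 22.4 per 100 kb over the main chromosome arms, which also take in gene-poor and repeat-rich sequence. Peaks stood at 5.02 per 100 kb (95% exact Poisson interval 3.25 to 7.42), against 2.66 (2.58 to 2.75) over the arms. These intervals did not overlap. They cover counting error only and treat peaks as independent. By complex, peaks stood at 5.48 per 100 kb (3.13 to 8.90) in the Antennapedia complex, an interval above the value of the arms. In the bithorax complex they stood at 4.38 (2.00 to 8.31), an interval that took in the value of the arms. With 5 kb flanks the densities were 4.96 and 2.85. The 9 pair-rule genes with their flanks held 57.3 pooled summits and 6.20 peaks (3.30 to 10.6) per 100 kb, close to the Hox values. Unlike the Hox peaks, these 13 peaks lay at only 4 of the genes. The neighbours slp1 and slp2 had 7 and 5, partly shared, hry had 3 and odd had 2. The genes eve, run, prd, opa and ftz had 0. The 6 gap genes held 49.9 pooled summits and 2.85 peaks (0.777 to 7.30), a peak density near that of the arms, with an interval that also took in the Hox value.

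**Figure D1:**
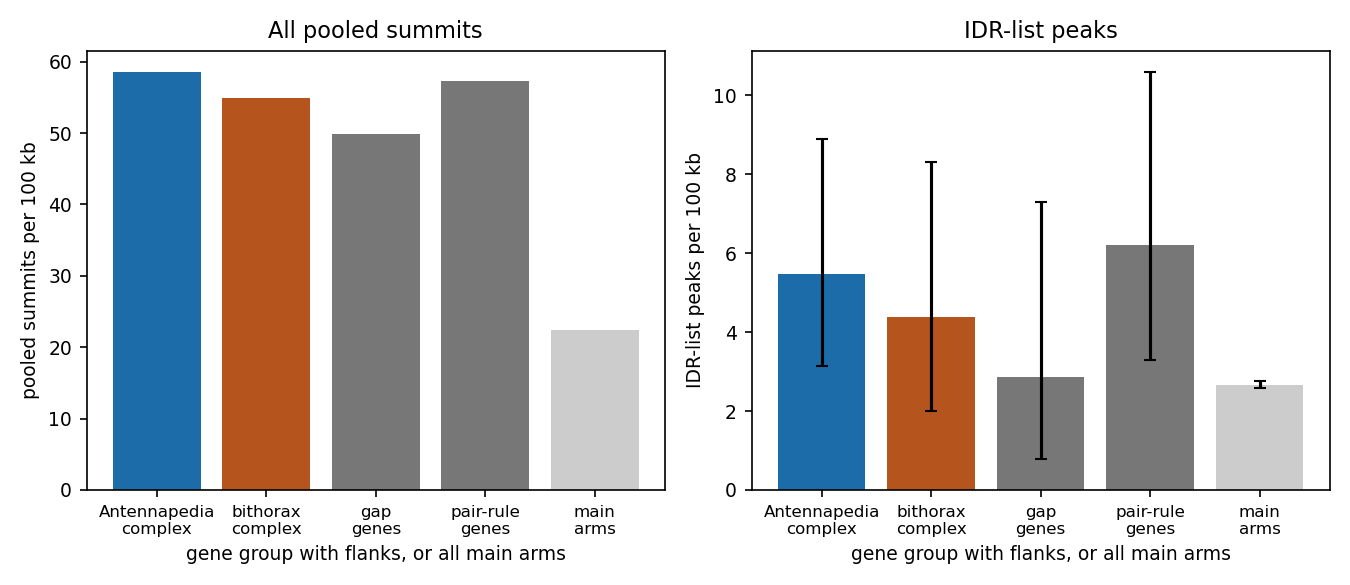
Pooled summits (left) and IDR-list peaks (right) per 100 kb in the Hox genes of each complex, the gap genes and the pair-rule genes, each with 10 kb flanks, and over the main chromosome arms. Error bars are 95% exact Poisson intervals for counting error; the pooled densities of the 4 gene groups lie between 49.9 and 58.6, and that of the arms is 22.4.

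lab, the most anterior gene, acts in the head and the midgut. It spans chr3R:6661427-6678590 on the minus strand (FBgn0002522) and was given 22 summits, 2 of them peaks. The stronger lay 340 bp downstream of the second of its 2 annotated starts, in an intron of the longer transcript, with a pooled signal of 1351 and rank 315. Its ranks were 275, 302 and 490 in replicates 1, 2 and 3, so each library placed it near the top of its 30000 regions. The other lay in an intron 3829 bp downstream of a lab start, with a signal of 231 and ranks of 2772, 4756 and 3075.

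pb, which directs the formation of the adult mouthparts, spans chr3R:6707800-6742063 (minus strand, FBgn0051481) and had 26 summits and 2 peaks. The stronger lay in an intron, 18089 bp downstream of the only annotated start, with a signal of 814 and ranks of 532, 701 and 953. No other Hox peak was as far from its nearest annotated start. The other peak, with a signal of 323, stood 9877 bp upstream of pb, just inside the flank, and 2254 bp downstream of the start of zen, a gene of dorsal tissues that lies in the same complex. Its ranks were 1850, 1915 and 2366.

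Dfd specifies the mandibular and maxillary segments and is the only Hox gene here on the plus strand (chr3R:6791836-6802428, FBgn0000439). It had 15 summits, the fewest of the 8, and 2 peaks. One lay 26 bp downstream of the Dfd start, with a signal of 262 and ranks of 2461, 2370 and 1774. The stronger, with a signal of 394 and ranks of 1833, 1177 and 1355, lay in intergenic DNA 4568 bp past the 3′ end. Both were within the highest 3567 regions of every replicate, and neither was among the highest 1000 of any.

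Scr, needed for the labial and first thoracic segments and for the salivary glands, spans chr3R:6823120-6849981 (minus strand, FBgn0003339). Its 31 summits included 4 peaks, none of them inside the gene. A peak with a signal of 1013 and ranks of 531, 400 and 429 lay 6495 bp past the 3′ end, 246 bp upstream of a start of the long non-coding RNA gene lncRNA:CR42651. A peak with a signal of 247 (ranks 2600, 2682 and 3268) lay in an intron of that RNA gene, and one with a signal of 216 lay in intergenic DNA 4312 bp past the Scr 3′ end. The last of the 4 stood 98 bp upstream of the first Scr start with a signal of 199. The libraries differed most over these 2 weak peaks. The intergenic one ranked 1977, 8792 and 12429, and the one at the start ranked 8811, 3841 and 1559, so in each only 1 library had it within its highest 3567.

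Antp, which gives the thorax its identity, is the longest Hox gene (chr3R:6896253-6999228, minus strand, FBgn0260642) and had 77 summits and 6 peaks. Its strongest peak, with a signal of 1504 and ranks of 292, 241 and 230, lay inside the gene in an exon of lncRNA:CR43252, 1137 bp downstream of that RNA's start and 29295 bp downstream of the nearest Antp start. In introns stood a peak of 1264 (ranks 351, 290 and 406), one of 1113 (ranks 403, 429 and 444) and one of 274 (ranks 2357, 2394 and 2384). The replicates placed these 4 peaks within a narrow band of ranks. The peak of 229 had its summit within the region of the peak of 1113 and overlapped the same replicate regions, so both carry the same replicate ranks. The nearest summits in replicates 1, 2 and 3 lay 30, 8 and 0 bp from it, and 20, 5 and 2 bp from the summit of the peak of 1113. The remaining peak, with a signal of 227 and ranks of 4427, 3077 and 1993, lay 7133 bp past the 3′ end.

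Ubx, the gene of the third thoracic and first abdominal segments, spans chr3R:16656623-16734426 (minus strand, FBgn0003944). It was given 54 summits, the most after Antp, and 2 of them were peaks (3.70%, 0.452 to 12.7). The stronger, with a signal of 943 and ranks of 627, 393 and 442, lay 237 bp past the 3′ end and 724 bp upstream of the start of the neighbouring gene modSP, a serine protease gene of the immune response. By position it could equally be given to modSP. The only peak inside Ubx, in an intron 16294 bp downstream of its start and 1995 bp upstream of the antisense RNA gene asRNA:PS4, had a signal of 254 and ranks of 2083, 2282 and 4298.

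abd-A specifies the middle abdominal segments (chr3R:16807214-16830049, minus strand, FBgn0000014) and had 26 summits and 5 peaks, the highest share of the 8 genes at 19.2% (6.55 to 39.4). That interval overlapped those of all the other Hox genes. The peaks were of moderate height. The strongest, with a signal of 551 and ranks of 972, 1279 and 1024, lay 7897 bp upstream of abd-A in introns of MSAmiP and lncRNA:iab8, a long non-coding transcript that runs through the DNA between abd-A and Abd-B. A second peak in those introns, with a signal of 235, stood 6151 bp upstream and ranked 1916, 4850 and 6662. Inside abd-A there was 1 peak, intronic, with a signal of 295 and ranks of 2008, 1927 and 3831. On the 3′ side lay a peak of 292 (ranks 1965, 2330 and 2310), 108 bp upstream of a start of lncRNA:TS16, and a peak of 219 (ranks 2744, 5795 and 3889).

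Abd-B, the most posterior gene, specifies the last abdominal segments and the genitalia (chr3R:16927212-16972236, minus strand, FBgn0000015). It had 33 summits and 2 peaks, and both were strong and intronic. One was the strongest of all Hox summits, with a signal of 1912, pooled rank 170 and ranks of 119, 158 and 336. It lay 1968 bp downstream of one of the 6 Abd-B starts. The other, with a signal of 1330 and ranks of 362, 303 and 227, lay 4548 bp upstream of the nearest Abd-B start and 3086 bp upstream of lncRNA:CR46267. The authors' list reaches a signal of 12466, so the top of the Hox range was well below that of the genome.

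**Figure D2:**
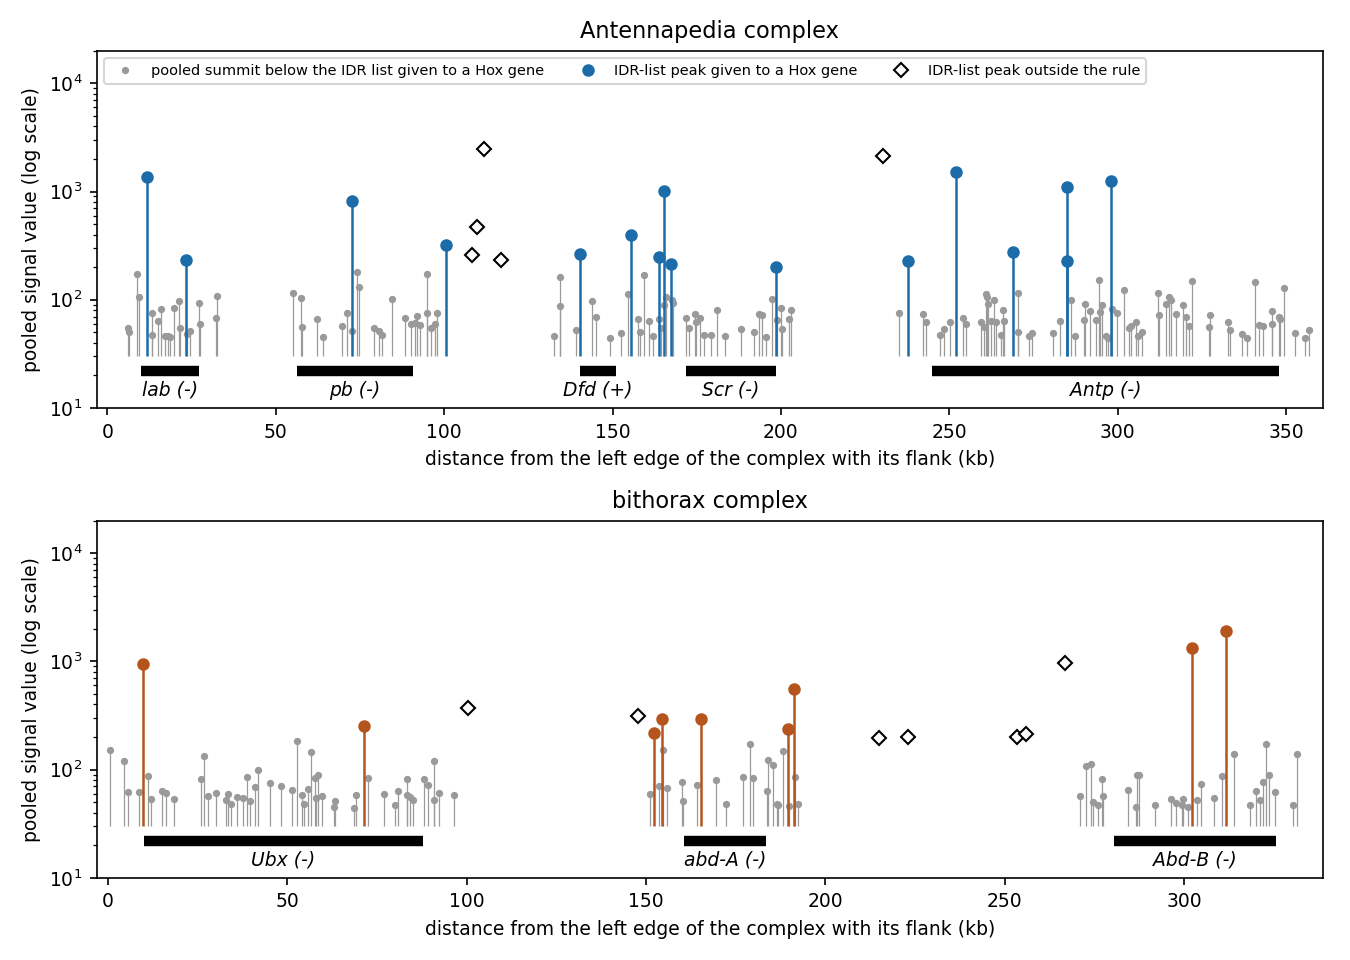
Pooled signal value (log scale) of each summit against its distance in kb from the left edge of each complex, with gene bodies as black bars and their strand in brackets. Grey points are summits below the IDR list, filled coloured points are the 25 Hox peaks, and open diamonds are the 12 further peaks of the complexes that lie beyond 10 kb of any Hox gene.

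**Figure D3:**
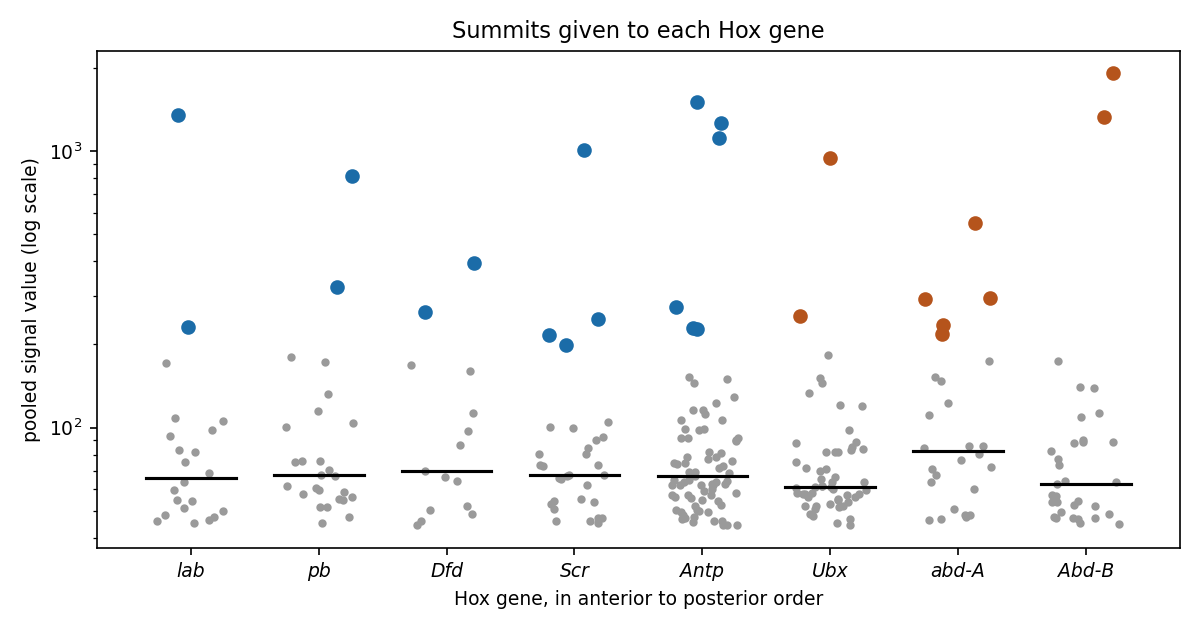
Pooled signal value (log scale) of the 284 summits by Hox gene, with peaks in colour, other summits in grey and the median of all summits of a gene as a bar. The medians lie between 61.3 (Ubx) and 82.2 (abd-A), and the strongest peak of each gene lies between 394 (Dfd) and 1912 (Abd-B).

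Over the 8 genes, the order by strongest peak was Abd-B, Antp, lab, Scr, Ubx, pb, abd-A and Dfd. The best replicate ranks kept only part of that order. Abd-B ranked first in all 3 libraries, with best ranks of 119, 158 and 227, though in replicate 3 Antp stood beside it at 230. The best ranks of lab, at 275, 302 and 490, overlapped those of Scr at 531, 400 and 429 and of Ubx at 627, 393 and 442, so these 3 neighbours were not separated by the libraries. pb (532, 701 and 953), abd-A (972, 1279 and 1024) and Dfd (1833, 1177 and 1355) had the lowest places in that order. The ranges of pb and abd-A did not overlap, and those of abd-A and Dfd did.

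The replicates recovered the Hox peaks about as often as other peaks. All 25 overlapped a listed region in all 3 replicate lists, and 17 (68.0%, 46.5 to 85.1) overlapped a region among the highest 3567 of each, against 65.3% of all peaks. Of the rest, 4 were supported in this way by 2 libraries and 4 by 1 library. The replicate summits lay a median of 17.0 bp from the pooled summit, and 59 of the 75 distances were within 50 bp. Below the IDR list, 6 of 259 summits had the same support from all 3 libraries, and all 6 overlapped the region of a peak. At 232 of the 259 no library placed a region in its highest 3567, and 142 of all 284 summits were listed by all 3 libraries. For being listed, for the distances and for support below the IDR list, no share over all summits is given here. Those counts are therefore not read as particular to Hox genes. The IDR list was made from these same replicates, so their support for its peaks is partly built in.

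**Figure D4:**
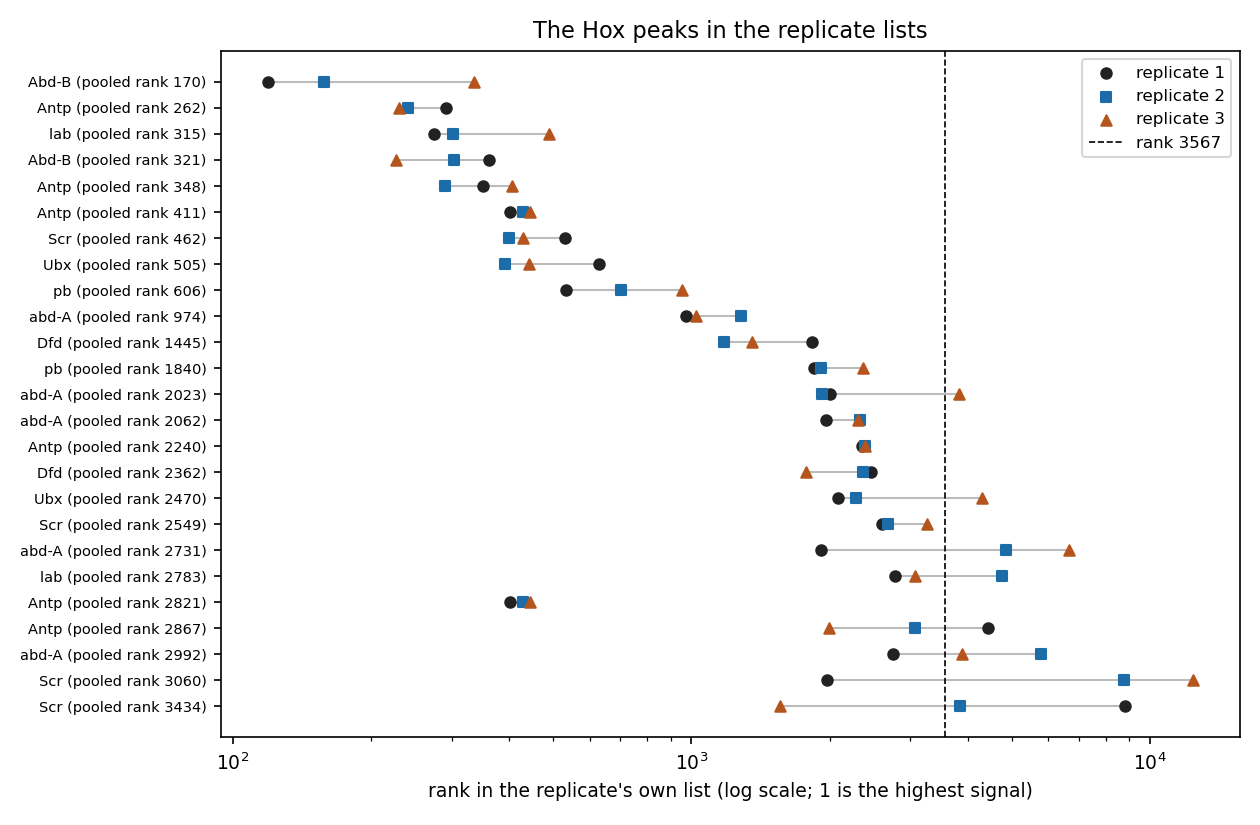
Rank of each Hox peak in the lists of replicates 1, 2 and 3 (log scale, 1 is the highest signal), ordered by pooled rank, with a grey line joining the replicates of a peak. The dashed line is rank 3567; the 10 peaks with the best pooled ranks reach rank 1279 at most in any library, while the peak 98 bp upstream of Scr reaches 8811.

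Hox summits lay mostly in introns, and few lay at starts. A promoter position, within 500 bp of any annotated start, was held by 5 of 25 Hox peaks (20%, 6.83 to 40.7) and by 39.5% of all peaks, a value inside that interval. Over all summits the shares were 14.8% (10.9 to 19.5) at the Hox genes and 27.4% (26.9 to 27.9) in the pooled list, with intervals that did not overlap. Introns held 13 Hox peaks (52.0%, 31.3 to 72.2) and 181 Hox summits (63.7%, 57.8 to 69.3), against 36.5% of all peaks and 40.1% of all pooled summits. Coding exons held 3 Hox summits (1.06%, 0.218 to 3.06), against 5.71% of the pooled list. The median distance to the nearest start was 2254 bp for Hox peaks and 931 bp for all peaks. By gene body, 13 of the 25 peaks lay inside a Hox gene, 8 on its 3′ side and 4 on its 5′ side.

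The Hox starts themselves carried summits, mostly weak ones. Of the 19 annotated Hox starts, 16 had a pooled summit within 500 bp, where the background was 43.7% of the 19252 starts of protein-coding genes. A peak stood within 500 bp of 3 of them, the second lab start, the Dfd start and the first Scr start, where the background was 8.83%. Signal near the other starts was low. The highest were 140 at an Abd-B start and 123 at the first abd-A start, and the only pb start had a summit of 60.3 at a distance of 412 bp. The only Ubx start had a summit of 81.7 at 184 bp. No summit was within 500 bp of 1 start each of Antp, abd-A and Abd-B.

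The Antennapedia and bithorax complexes did not differ beyond counting error. Peaks were 16 of 171 summits (9.36%, 5.44 to 14.7) in the Antennapedia complex and 9 of 113 (7.96%, 3.71 to 14.6) in the bithorax complex. The odds ratio was 1.19 (95% interval 0.475 to 3.18), with a two-sided Fisher's exact p of 0.831. These counts allow a true odds ratio anywhere between those bounds, below or above 1, if summits are taken as independent. Density was 58.6 summits and 5.48 peaks (3.13 to 8.90) per 100 kb in the Antennapedia complex, and 54.9 summits and 4.38 peaks (2.00 to 8.31) in the bithorax complex. With flanks of 5 kb the peak densities were 4.96 and 2.85, and inside the genes alone 4.69 and 2.75. Peak signals ran from 199 to 1504 with a median of 299 in the former and from 219 to 1912 with a median of 295 in the latter. The ranges overlapped nearly throughout.

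The 3 libraries gave the same comparison one by one. In the replicate lists, the share of Hox regions among the library's highest 3567 was 11.1%, 8.74% and 13.9% in the Antennapedia complex and 9.09%, 8.20% and 6.84% in the bithorax complex. The means were 11.3% ± 2.60 and 8.04% ± 1.13 (SD, n = 3), and the Antennapedia complex was higher in 3 of 3 libraries by a mean of 3.22 percentage points. A two-sided exact permutation test over the libraries gave p = 0.250, the smallest value that 3 libraries allow. The shares were furthest apart in replicate 3 and closest in replicate 2. By construction, the background in each library was 3567 of 30000 regions, or 11.9%. The Antennapedia share was above that background in replicate 3 only, and the bithorax share was below it in every library.

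Promoter positions made up 14.6% (9.69 to 20.8) of the summits in the Antennapedia complex and 15.0% (9.01 to 23.0) in the bithorax complex. Intronic positions made up 64.3% and 62.8%. Intergenic summits were 18.1% (12.7 to 24.7) in the Antennapedia complex and 9.73% (4.96 to 16.8) in the bithorax complex, and these intervals overlapped.

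The longest stretch without any pooled summit was 22.7 kb in the Antennapedia complex, between lab and pb (chr3R:6683861-6706541), and 8.65 kb in the bithorax complex (chr3R:16755032-16763685). The median gap between neighbouring summits was 1215 bp and 1250 bp.

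Sequence around the summits was searched on both strands for short words of factors known at Hox regulatory DNA, from 100 bases before each summit to 100 after it. GAGAG, a word of the GAGA factor, the product of Trithorax-like that binds at Polycomb response elements, was in 13 of 25 Hox peak windows (52.0%, 31.3 to 72.2), against 34.5% of all peaks, a value inside that interval. Over all summits it was in 31.3% (26.0 to 37.1) of Hox windows and 27.6% of pooled windows. GCCAT, the core word of the Polycomb group protein Pleiohomeotic, was in 40.1% (34.4 to 46.1) of Hox summit windows and 33.5% (33.0 to 34.1) of pooled windows. Among peaks it was in 28.0% (12.1 to 49.4) of Hox windows and 24.2% of all windows. Words this short are found often by their length alone.

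Words of other factors were in few Hox peaks or in a share near the background. CAGGTAG, a word of the early activator Zelda, was in 2 of 25 Hox peaks (8%, 0.984 to 26.0), against 1.18% of all peaks. Over all summits CAGGTAG was in 2.82% (1.22 to 5.47) of Hox windows and 1.47% of pooled windows. TAATTA, a core word of homeodomain proteins, was in 12.0% (2.55 to 31.2) of Hox peaks and 13.9% of all peaks. TGATTGAT, a word of Hox proteins with their cofactor Extradenticle, was in 1 Hox peak and in 1.15% of all peaks. CGATA, a word of the insulator protein BEAF-32, was in 20% (6.83 to 40.7) and 24.8%. TATCGATA, which contains CGATA and is a word of DREF, a regulator of replication genes, was in 0 of 25 Hox peaks and 1.88% of all peaks. A count of 0 in 25 allows a share of up to 13.7% by the exact interval.

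The 3 overlapping words capitalised in the sequences of the strongest peaks join into TACACTGA, whose reverse complement is TCAGTGTA. At the 3530 peaks outside the complexes each was in 17.8% to 19.8% of windows reaching 50 bases either side of the summit, and in 5.37% to 5.62% of windows 150 to 250 bp to the side. At least 1 of them was in 7 of 25 Hox peaks (28.0%, 12.1 to 49.4) and in 28 of 259 Hox summits below the IDR list (10.8%, 7.30 to 15.2). All peaks had 34.8% (1240 of 3567) and all pooled summits 18.8% (5628 of 30000). The pooled value includes the peaks, so it lies above the like background for Hox summits below the IDR list. The share over all summits below that list was not computed. The whole of TACACTGA was in 1 Hox peak, the strongest of Antp, where TCAGTGTA starts 10 bp before the summit, and in 5.21% of all peaks. The windows of the strongest lab, pb, Scr, abd-A and Abd-B peaks hold none of the 3 words, so a high signal at a Hox gene was found with and without them.

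The other homeotic-region genes and known partners of Hox proteins had peaks too. Among the further genes of the Antennapedia complex, bcd (the anterior maternal determinant), zen, zen2 and Ama had a peak within 10 kb and the pair-rule gene ftz did not, its highest summit having a signal of 179. These small genes lie close together and share peaks. The only zen2 peak is the peak of 323 that was given to pb above. The highest peak of bcd, zen and Ama is the same one, with a signal of 2491. Of 5 cofactor genes, 4 had a peak. hth, which brings Extradenticle into the nucleus, had 14, the highest with a signal of 2071, whereas exd itself had 0. The highest signal of exd was 120. These genes differ in length, with hth at 132 kb and 130 pooled summits and exd at 4.04 kb and 7. Of 10 genes known as targets of Hox proteins, 8 had a peak, among them salm with 3 (highest signal 1069) and rho with 2 (659), while dpp and rpr had none, with highest signals of 112 and 188. For comparison, 3 of 6 gap genes and 4 of 9 pair-rule genes had one, as did 44.2% of all protein-coding genes and 61.2% of the long ones.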

How the data were processed

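The region lists were read as the authors deposited them, on build dm6. Per the notes with the lists, each replicate list came from that replicate and a control alignment, the pooled list from all 3 replicates, and the IDR list from regions passing an IDR threshold. The signal values are those the authors deposited; their unit and scaling, the aligner, the peak caller and the IDR limit were not given in the sources used here. The deposited −log10 q-values all read 3.96 in the IDR list and served no purpose here. The lists hold no reads, so depth is unknown and intervals cover counting error only. Signals differ in scale between replicates, so replicates were compared by rank.

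The 3567 summits of the IDR list were the 3567 pooled summits with the highest signal. Genes and starts came from Ensembl release 115, whose arms have the lengths of dm6. A summit was given to the nearest Hox gene within 10 kb. Classes were set in the order promoter (500 bp of a start), 5′ untranslated region, coding exon, 3′ untranslated region, non-coding exon, intron, intergenic. Support was an overlap of 1 bp with a region among the highest 3567 of a replicate. Shares carry exact Clopper-Pearson intervals (95%), and densities exact Poisson intervals. The complexes were compared by Fisher's exact test, and over replicates by an exact sign-flip permutation test. Fisher's test takes pooled summits as its unit, so its p-values hold no spread between libraries and treat neighbouring summits as independent. Where the labels name no separate parents or cages, the permutation p-value measures the spread between these libraries only. Python 3.11.15, numpy 2.4.6, pandas 2.3.3 and scipy 1.17.1 were used, and the steps were tested on simulated data.

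All Hox genes and all their peaks are named. With 1 condition, no gene of like pattern was sought. The members and lists were chosen with earlier results of these data known. Alternatives were other flanks, shorter and longer lists, other promoter and word windows, other rules of overlap, and leaving out each replicate.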

Additional observations from a re-analysis of the deposited data

How the results depend on the processing

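The share of Hox summits in the IDR list was 8.80% as reported. Flanks of 5 or 20 kb, gene bodies only and the whole span of each complex left it between 6.84% and 9.30%. The loss of summits near starts of other genes gave 8.85%. Counting each distinct region once gave 8.83%, but it merged identical regions only and kept 283 of 284. Regions that overlap in part still counted separately, so that setting cannot show how far overlap affects the share. The bithorax peak density fell from 4.38 to 2.85 per 100 kb with 5 kb flanks and 2.75 in gene bodies, while the Antennapedia density of 5.48 came to 4.96 and 4.69. Without 1 replicate, with a peak then being a summit supported by both others, the share of Hox summits was 8.80% to 9.51%. The odds ratio between the complexes was then 1.19 to 2.01. Over 11 alternatives the exact p for the complexes ran from 0.149 to 1.00. With the stronger 50% of the IDR list the share was 3.87% and the densities 2.40 and 1.94 peaks per 100 kb in the Antennapedia and bithorax complexes. With as many more summits next in signal they were 17.3%, 9.25 and 10.7, and the odds ratio turned to 0.776 (exact p = 0.427). Shares and densities change with list length by construction; the cause of the turned ratio was not tested. The promoter share of 14.8% was 8.10% with 200 bp, 22.5% with 1000 bp and 6.69% with Hox starts only. Peaks supported by all replicates numbered 11, not 17, when each list was cut to fewer regions, and 14 to 23 otherwise. GAGAG was in 17.6% of Hox windows reaching 50 bases either side and 46.5% of those reaching 200, against 31.3% with 100. Shorter lists and flanks for the other gene lists, and wider windows for the 6-base words, were added after seeing the data. No paired analysis was possible because there is 1 group of samples; the complexes were compared within each library. The main limits are the unknown depth, a single group, and 25 peaks; no control library was examined.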

Other observations

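The complexes held 12 further peaks beyond 10 kb of any Hox gene, 5 in the Antennapedia complex and 7 in the bithorax complex. In the Antennapedia complex they included the 2 strongest of either complex. One, with a signal of 2491 and pooled rank 92, lay inside Ama, 249 bp upstream of an annotated Ama start. Ama encodes a secreted immunoglobulin-domain protein. The other, with a signal of 2140 and rank 129, lay in an intron of lncRNA:CR44931 between Scr and Antp. Both were within the highest 3567 regions of all 3 libraries. A peak of 257 stood 241 bp upstream of bcd.

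In the bithorax complex, a peak with a signal of 373 lay in lncRNA:bxd, the RNA gene upstream of Ubx, and was supported by all 3 libraries. Another 5 lay in lncRNA:iab8, with signals of 197, 202, 199, 214 and 957. The peak of 957, at pooled rank 495, was the only one of these 5 supported by all 3 libraries.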
